A study of Mus musculus with 108 samples.

Results

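The clustered protocadherins are cadherin-like adhesion proteins of neurons, encoded side by side in 3 gene clusters named alpha, beta and gamma. In the series of mouse hippocampus RNA sequencing described here they were taken by gene symbol: a row of the count table was a member where its symbol began with Pcdha, Pcdhb or Pcdhg followed by a further letter or digit. This gave 59 members of 23337 genes, of which 15 were alpha, 22 beta and 22 gamma. The data came from 15 libraries of whole hippocampus, with 3 independent replicates at each of postnatal days 0, 7, 14, 21 and 28 (P0 to P28), and from 93 single neurons taken in postnatal weeks 3 to 4. The neurons had been characterised by electrophysiology and were labelled as 14 fast-spiking parvalbumin interneurons (PV), 19 regular-spiking cholecystokinin interneurons (CCK) and 25 pyramidal cells of area CA1, and, in the subiculum, as 21 pyramidal cells that fired in bursts and 14 that fired regularly. No group carried a genetic change or a treatment according to the labels, which name neither a strain nor the animals.

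In the alpha and gamma clusters each member is built from its own large first exon, with its own promoter, which is spliced to constant exons that all members of the cluster share, whereas beta members have no shared constant exons. The extracellular domains bind the same isoform on a neighbouring cell, and the set of isoforms a neuron makes is thought to let its branches tell themselves from those of other neurons. Most members are chosen by single cells in an apparently random way, through promoters that bind CTCF and cohesin. The last members of the alpha and gamma clusters, called C-type (Pcdhac1, Pcdhac2, Pcdhgc3, Pcdhgc4 and Pcdhgc5), are regulated differently and are known to follow cell type and age.

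All located members lay on the plus strand of chromosome 18 of mouse build GRCm38. In the GENCODE M21 annotation the alpha cluster ran from base 36930184 to 37187661, the beta cluster from 37264938 to 37524479 and the gamma cluster from 37661793 to 37841873. These spans covered 14 alpha, 22 beta and 22 gamma members. The remaining row, Pcdha4-g, had no position and no read in any library. Alpha and gamma gene models overlapped in their constant exons. How a read in a shared exon was assigned is not given in the sources used here. A member's level is taken to rest mainly on its own exons, which was not checked. Pcdhgb8 is annotated as a transcribed pseudogene, and Pcdhb21 and Pcdhb22 overlapped each other.

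Tissue libraries held 2341677 to 13262818 gene reads, of which 2224 to 11443 were on members. Cells held 30025 to 11694081 gene reads. In tissue 58 of the 59 members had at least 1 read and 56 had enough for the test. The untested members were Pcdhb1 with 25 reads over 11 libraries, Pcdhgb8 with 98 reads over 13 libraries, and Pcdha4-g with 0. Tissue levels are given as reads per 1000000 gene reads (CPM) after TMM normalisation, differences as log2 fold changes from edgeR's quasi-likelihood test, and a gene was called where its p, adjusted by Benjamini-Hochberg over all 14737 genes tested, was under 0.05. The labels call the replicates independent without naming animals, so p-values measure the spread between these libraries.

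The protocadherins as a family fell during the first postnatal month, and 1 member rose against the rest. The summed level of all members was 921.7 ± 21.8 CPM at P0, 844.4 ± 11.7 at P7, 636.4 ± 18.9 at P14, 687.1 ± 28.8 at P21 and 664.9 ± 27.0 at P28 (mean ± SD, n = 3 at each age). In sums, that fall lay in the members outside the C-type group. Their sum was 638.4 ± 5.37 CPM at P0, 540.9 ± 3.81 at P7, 360.1 ± 12.1 at P14, 375.8 ± 22.8 at P21 and 362.5 ± 18 at P28. The 5 C-type members together had 283.4 ± 26.1 CPM at P0, 303.5 ± 14.8 at P7, 276.3 ± 6.88 at P14, 311.3 ± 22 at P21 and 302.4 ± 13.2 at P28. Their libraries at P28 (291.8, 317.2 and 298.2 CPM) overlapped those at P0 (253.2, 297.5 and 299.4 CPM). Within this sum Pcdhgc3 and Pcdhgc4 fell and Pcdhgc5 rose, as given below. The C-type share of all member reads was 30.7 ± 2.15% at P0, 35.9 ± 1.26% at P7, 43.4 ± 0.23% at P14, 45.3 ± 2.48% at P21 and 45.5 ± 1.16% at P28.

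**Figure D1:**
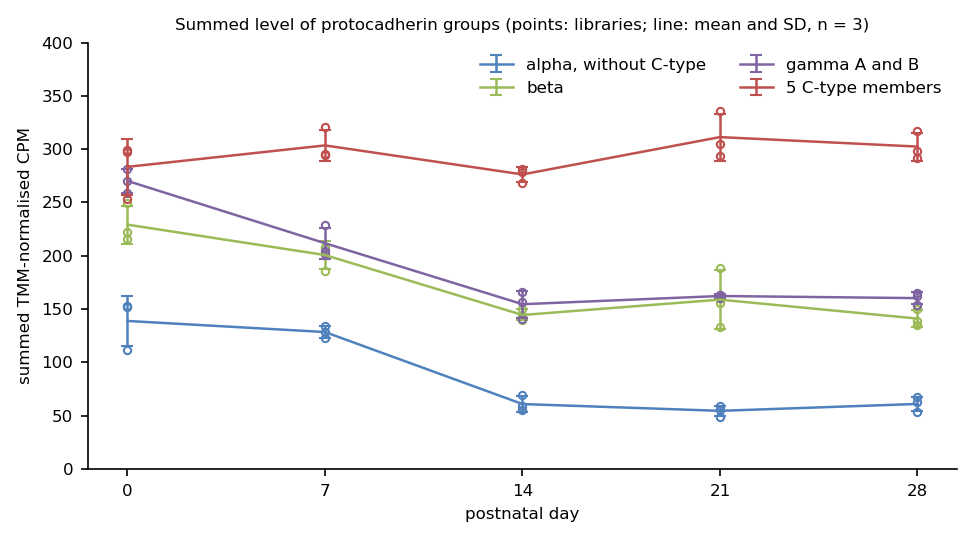
Summed TMM-normalised CPM (vertical axis) of 4 groups of members against postnatal day (horizontal axis); points are single libraries, lines and bars the mean and SD of 3 libraries. The sum of the 5 C-type members, which joins rising and falling genes, stays between 276.3 and 311.3 CPM on average. The sums of the other alpha, the beta, and the gamma A and B members are all lower at P14 than at P7.

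Counted gene by gene, 34 of the 56 tested members were called lower at P28 than at P0, 1 was called higher and 21 were not called. Of all tested genes, 31.3% were called lower and 32.9% higher in that comparison. The median log2 fold change over the tested members was -0.81, beside 0.00 over all tested genes, and 48 of the 56 values were below 0. In whole tissue, fewer cells of a type and less RNA per cell cannot be told apart. Markers of immature neurons moved over the same ages, with a median summed level over 5 genes of 2970 CPM at P0, 1453 at P7, 307.5 at P14, 203.6 at P21 and 180.8 at P28. Those of oligodendrocytes ran the other way, with a median sum over 7 genes of 89.5 CPM at P0, 306.8 at P7, 10500 at P14, 13200 at P21 and 10970 at P28. The 4 measured general neuron markers summed to a median of 4398 CPM at P28 (range 4310 to 4860) and 3490 CPM at P0 (3480 to 3719), and no marker of these 3 lists was at 0 over an age except 1 oligodendrocyte gene at P7. The part of this change of cell makeup in the protocadherin values was not tested.

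The timing was uneven. Between P7 and P0, 6 members were called lower and 2 higher (all genes: 17.8% lower, 21.0% higher), with a median of -0.18. Between P14 and P7, 25 were called lower and 1 higher (all genes: 20.5% lower, 21.7% higher), with a median of -0.55 and 54 of 56 values below 0. After P14 few members were called: 1 lower and 3 higher between P21 and P14 (all genes: 10.6% lower, 9.93% higher), and 1 lower and 0 higher between P28 and P21 (all genes: 3.34% lower, 4.49% higher). At an unadjusted p under 0.05, 7 members differed in the last step. DESeq2 also gave 1 call there. Over all 5 ages together, 37 of the 56 tested members differed by edgeR's F test, beside 76.4% of all genes.

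Pcdhgc5, the last member of the gamma cluster and one known from rat neurons to bind GABA-A receptors, had the largest change of the family. Its level in the 3 libraries was 3.225, 5.946 and 3.177 CPM at P0, 28.7, 29.68 and 29.84 at P7, 110, 104.2 and 106.9 at P14, 111.1, 131.2 and 106.2 at P21 and 119.3, 133.4 and 119.3 at P28. Every library of P14 or later was above every library of P7, and every P7 library was above every P0 library. At P28 it was 28.5-fold higher than at P0 (log2 fold change 4.83, SE 0.16, adjusted p = 4.77e-15 by edgeR's quasi-likelihood test). The step from P0 had a log2 fold change of 2.76 (SE 0.18, adjusted p = 8.38e-10) at P7, and P14 over P7 one of 1.86 (SE 0.13, adjusted p = 8.93e-10). Its part of all gamma reads was 0.9 ± 0.33% at P0, 7.5 ± 0.47% at P7, 31.1 ± 1.53% at P14, 31.4 ± 2.06% at P21 and 34.3 ± 1.41% at P28.

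Its neighbours Pcdhgc4 and Pcdhgc3 went the other way. Pcdhgc4, which is known to be needed for the survival of many neurons, had 53.22, 62.72 and 63.45 CPM at P0, 55.1, 65.67 and 67.61 at P7, 30.14, 23.51 and 25.68 at P14, 32.88, 30.74 and 26.27 at P21 and 23.69, 25.86 and 24.19 at P28. The libraries from P14 on all lay below those of P0 and P7. Its log2 fold change was -1.24 (SE 0.12, adjusted p = 1.2e-07 by edgeR) for P14 over P7 and -1.30 (SE 0.12, adjusted p = 1.56e-08) for P28 over P0.

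Pcdhgc3, a C-type member made in neurons and glia and known to act through Axin1, had 96.36, 118.6 and 128.9 CPM at P0, 85.09, 77.46 and 99.25 at P7, 54.78, 51.68 and 64.37 at P14, 61.6, 62.47 and 57.51 at P21 and 49.32, 53.79 and 55.78 at P28. The P7 and P0 libraries overlapped, and those from P14 on were lower than both. P28 over P0 had a log2 fold change of -1.13 (SE 0.12, adjusted p = 5.35e-08 by edgeR). Its part of gamma reads was 14.6 ± 0.60% at P28 and 25.5 ± 3.13% at P0.

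The alpha C-type members ended near their starting level. Pcdhac2, known to be needed for the spacing of serotonin axons, had 91.52, 103.7 and 96.36 CPM at P0, 117.1, 116.9 and 116.9 at P7, 79.09, 82.73 and 80.59 at P14, 95.1, 104.9 and 98.54 at P21 and 92.27, 98.24 and 93.92 at P28. The P7 libraries were the highest and the P14 libraries the lowest, with no overlap with other ages. The log2 fold changes of these steps were 0.26 for P7 over P0 (SE 0.08, adjusted p = 0.0135), -0.54 for P14 over P7 (SE 0.08, adjusted p = 1.68e-05) and 0.30 for P21 over P14 (SE 0.08, adjusted p = 0.00976), all by edgeR. P28 over P0 was not called (log2 fold change -0.04, SE 0.08, adjusted p = 0.646). Pcdhac2 held 58.6 ± 1.54% of alpha reads at P28 and 40.1 ± 2.75% at P0. Pcdhac1, the other alpha C-type member, had 7.204, 5.867 and 5.008 CPM at P28 and 8.87, 6.597 and 7.494 CPM at P0. These overlapped, and the gene was not called (log2 fold change -0.32, SE 0.24, adjusted p = 0.25).

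**Figure D2:**
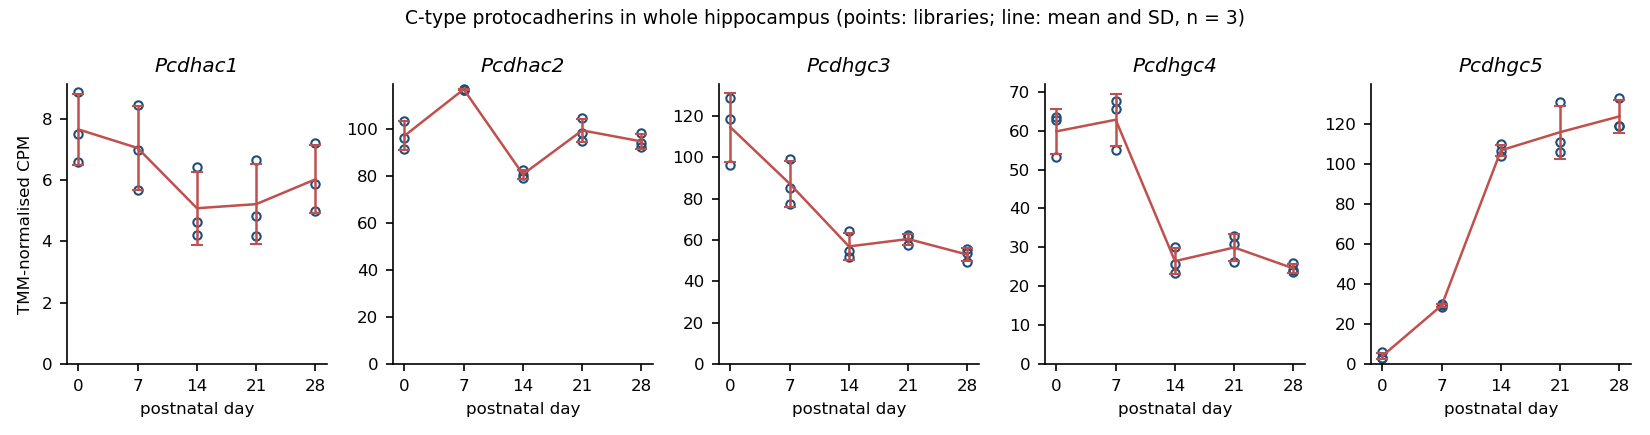
TMM-normalised CPM (vertical axes, each with its own range) of the 5 C-type members against postnatal day (horizontal axes); points are libraries, lines and bars the mean and SD of 3. Pcdhgc5 stands at 119.3 to 133.4 CPM in the P28 libraries, against 3.177 to 5.946 CPM at P0, while Pcdhgc3 and Pcdhgc4 end lower and Pcdhac2 ends near its P0 level.

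Among the other alpha members, 9 of the 12 tested were called lower at P28 than at P0 and none of these 12 was called higher. Of all genes, 31.3% were called lower and 32.9% higher. By edgeR's test on these 12, 9 had an unadjusted p under 0.05, the 9 called. Their sum was 61.07 ± 6.97 CPM at P28 and 138.9 ± 23.3 CPM at P0. Pcdha11 had the largest fall of the whole family, with 2.632, 4.462 and 3.775 CPM at P28 and 17.34, 17 and 21.5 CPM at P0. The 2 sets of libraries lay far apart (log2 fold change -2.34, SE 0.24, adjusted p = 5.63e-08 by edgeR). Pcdha11 was already lower at P7, with 7.945, 15.25 and 8.971 CPM (log2 fold change -0.82 over P0, SE 0.23, adjusted p = 0.00835). Pcdha5 had 5.126, 4.297 and 7.628 CPM at P28 and 12.5, 14.87 and 14.83 CPM at P0. Pcdha2 had 6.927, 6.528 and 6.472 CPM at P28 and 15.72, 19.42 and 14.09 CPM at P0. For both, no P28 library reached a P0 library, and the log2 fold changes were -1.32 (SE 0.26, adjusted p = 0.000212) and -1.31 (SE 0.22, adjusted p = 3.51e-05) by edgeR. Most of the alpha fall came between P7 and P14, where 9 of these 12 were called lower (all genes: 20.5%) and the median was -1.18. Pcdha9 fell further, with 2.779, 3.377 and 3.419 CPM at P21 and 6.888, 6.21 and 6.75 CPM at P14, the largest called step of that interval (log2 fold change -1.07, SE 0.26, adjusted p = 0.00729). Pcdha1, Pcdha4 and Pcdha8 were not called at P28 against P0, with log2 fold changes of 0.09 (SE 0.51), -0.40 (SE 0.36) and -1.16 (SE 0.59). Pcdha7 (adjusted p = 0.0449 by edgeR) and Pcdha12 (adjusted p = 0.000902) were called but their libraries overlapped.

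In the beta cluster, whose genes each encode a whole protein in a single exon, 11 of 21 tested members were called lower and 0 higher at P28 against P0. The shares of all genes were 31.3% lower and 32.9% higher. At an unadjusted p under 0.05 there were 12. Pcdhb19 had the largest fall, with 3.463, 2.644 and 3.082 CPM at P28 and 16.93, 9.291 and 9.693 CPM at P0 (log2 fold change -1.89, SE 0.28, adjusted p = 7.45e-06 by edgeR). Pcdhb7 had 12.61, 11.65 and 13.48 CPM at P28 and 37.09, 28.62 and 33.48 CPM at P0 (log2 fold change -1.37, SE 0.19, adjusted p = 2.87e-06). Pcdhb8 had 1.801, 3.057 and 2.851 CPM at P28 and 6.451, 6.504 and 6.354 CPM at P0 (log2 fold change -1.29, SE 0.27, adjusted p = 0.000379). In all 3 the libraries of the 2 ages did not overlap.

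Pcdhb9 was highest at P21. It was not called between the ends of the series (log2 fold change -0.02, SE 0.14), with 23.14, 26.03 and 24.73 CPM at P28 and 25.4, 25.55 and 24.52 CPM at P0, but had 29.8, 37.32 and 40.72 CPM at P21. All P21 libraries were above those of P14 (23.26, 21.96 and 25.77 CPM) and of P28. The log2 fold change was 0.59 for P21 over P14 (SE 0.14, adjusted p = 0.00595) and -0.53 for P28 over P21 (SE 0.14, adjusted p = 0.0221), by edgeR. The second call was lost when P21 replicate 2, P21 replicate 3, P28 replicate 1 or P28 replicate 3 was left out (adjusted p 0.0719 to 0.0879). Of the 10 beta members not called between P28 and P0, Pcdhb12 had the highest log2 fold change, 0.35 (SE 0.27), and Pcdhb18 the lowest, -0.49 (SE 0.23), although the libraries of Pcdhb18 did not overlap.

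In the gamma A and gamma B subfamilies, 12 of 18 tested members were called lower at P28 than at P0 and 0 higher, with 13 at an unadjusted p under 0.05. The shares of all genes were 31.3% lower and 32.9% higher. The subfamilies gave 10 of 12 called lower for gamma A and 2 of 6 for gamma B, the latter near the share of all genes. The difference between these counts was not tested. Pcdhga11 had 10.81, 10.82 and 8.706 CPM at P28 and 33.46, 28.62 and 25.82 CPM at P0 (log2 fold change -1.52, SE 0.20, adjusted p = 1.37e-06 by edgeR). Pcdhgb7 had 10.81, 11.82 and 12.02 CPM at P28 and 29.83, 26.2 and 26.8 CPM at P0 (log2 fold change -1.24, SE 0.14, adjusted p = 2.41e-07). Pcdhgb7 was already called lower at P7, with 15.63, 14.23 and 15.01 CPM (log2 fold change -0.87 over P0, SE 0.14, adjusted p = 0.000102). Libraries of P28 and P0 did not overlap in either gene. The gamma members not called were Pcdhga5, Pcdhga12, Pcdhgb1, Pcdhgb2, Pcdhgb4 and Pcdhgb5, with log2 fold changes of -0.51 (SE 0.23, Pcdhgb4) to 0.34 (SE 0.35, Pcdhga5).

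**Figure D3:**
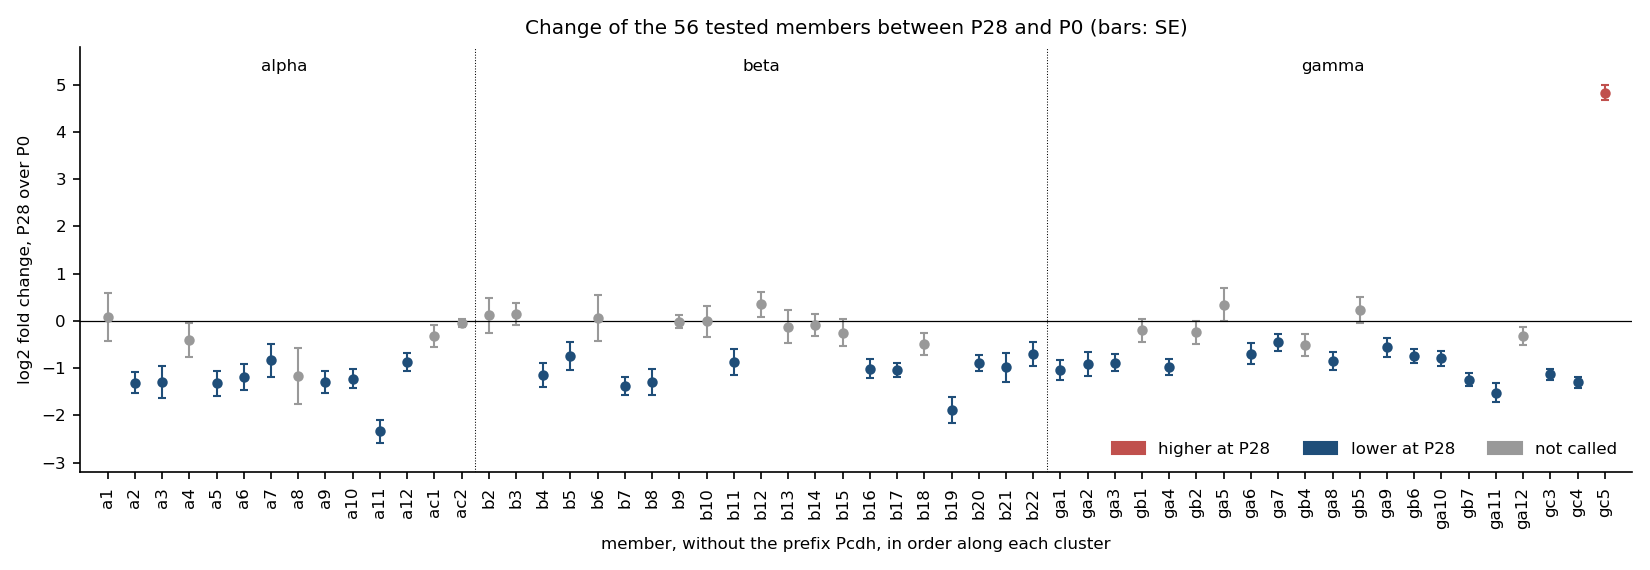
Log2 fold change of P28 over P0 (vertical axis) of the 56 tested members in their order along each cluster (horizontal axis, symbols without the prefix Pcdh); bars are SE, colour gives the call by edgeR at an adjusted p under 0.05. Pcdhgc5 alone was called higher, at 4.83, and the lowest value is -2.34 for Pcdha11.

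Per kilobase of exon that no other member shares, Pcdhac2 stood at 31.31 CPM at P28, ahead of Pcdhgc5 with 22.51, Pcdhgc3 with 15.67, Pcdhb9 with 8.063 and Pcdhgc4 with 7.07 CPM. At P0 the order was Pcdhgc3 with 33.9, Pcdhac2 with 32.1, Pcdhgc4 with 17.2 and Pcdhga4 with 11.94 CPM per kilobase, and Pcdhgc5 had 0.7473. Pcdhac2 and Pcdhgc3 were thus among the 3 most abundant members per length at both ages, and Pcdhgc5 joined them at P28. This order assumes that reads came from a member's own exons, which was not checked.

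The genes that act on protocadherin promoters were followed from a list of 21, of which 20 were tested. The list holds CTCF, cohesin with its loader and release factors, and DNA and histone methylation enzymes. At P28 against P0, 18 were called lower and 0 higher (18 at an unadjusted p under 0.05), beside the 31.3% and 32.9% of all genes given above. Dnmt3b, a DNA methyltransferase active in early embryos that methylates protocadherin promoters in mouse, had a log2 fold change of -2.81 (SE 0.45, adjusted p = 1.74e-05 by edgeR). Tet1, which oxidises methylcytosine, had one of -2.0 (SE 0.21, adjusted p = 1.84e-07). Ctcf had -0.55 (SE 0.11), the cohesin subunit Stag1 -1.36 (SE 0.14), Smchd1, a repressor of the clusters, -1.01 (SE 0.13), and the histone methyltransferase Setdb1 -1.26 (SE 0.10), all called. Pds5b was not called (-0.01, SE 0.12), and Wapl was not tested.

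Of 21 genes for proteins that bind, cut or signal with protocadherins, 8 were called higher, 8 lower and 5 were not called, which is near the shares of all genes (32.9% higher and 31.3% lower). Ptk2b, the kinase Pyk2 that gamma protocadherins inhibit, was 11.2-fold higher at P28 (log2 fold change 3.49, SE 0.11, adjusted p = 1.29e-15 by edgeR). Members of the WAVE complex, which binds the cytoplasmic tails of some protocadherins and drives actin branching, were mostly higher. Cyfip2 had a log2 fold change of 1.15 (SE 0.08), Abi1 0.87 (SE 0.12), Wasf1 0.73 (SE 0.09), Nckap1 0.62 (SE 0.19) and Cyfip1 0.41 (SE 0.08), while Abi2 was not called (-0.25, SE 0.11). Marcks, an actin-binding protein downstream of gamma protocadherins in dendrites, had a log2 fold change of -1.90 (SE 0.12, adjusted p = 6.37e-11 by edgeR). Adam10, the protease that sheds protocadherin ectodomains, had one of -0.71 (SE 0.14). Celsr3 and Cdh2, other cadherins, had -1.37 (SE 0.14) and -1.21 (SE 0.08).

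The same members were then followed in single neurons. Because the labels name no animal, each cell type counts as 1 sample. No p-value is given over cells, and pooled reads are given with exact 95% intervals that cover counting error only. PV, CCK and CA1 pyramidal cells were made with version 3 and subiculum cells with version 4 of the cDNA kit, so kit and region cannot be told apart. Detection differed with it. The median number of genes with a read was 4511 in PV, 6085 in CCK, 2784 in CA1 pyramidal, 9860 in subiculum burst and 9703.5 in subiculum regular cells.

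Labels were checked by comparing reads of Gad1 and Gad2, which encode GABA-synthesising enzymes, with those of Slc17a7, a glutamate transporter. They matched the label in 12 of 14 PV, 15 of 19 CCK, 18 of 25 CA1 pyramidal, 21 of 21 burst and 14 of 14 regular cells. This comparison tells GABA from glutamate cells only, so it cannot tell a PV from a CCK cell. They were opposed in 0 PV, 3 CCK and 2 CA1 pyramidal cells, and 2 PV, 1 CCK and 5 CA1 pyramidal cells had no read of the 3 genes. The parvalbumin gene Pvalb had a read in 8 of 14 PV cells and in 20 of 21 burst cells, at 337.5 CPM in PV and 38.36 CPM in burst cells. In CCK cells it had a read in 2 of 19, at 0.6484 CPM. The cholecystokinin gene Cck had a read in 11 of 14 PV cells, at 688.1 CPM, and in 19 of 19 CCK cells, at 705.4 CPM. Of the further CCK cell markers, Cnr1 had 1152 CPM in PV and 5439 in CCK cells, and Vip 170.9 and 646.2 CPM. Glial markers were present too. The median summed level of 7 oligodendrocyte markers was 105.5 CPM in PV, 67.99 in CCK, 328.1 in CA1 pyramidal, 3695 in burst and 1439 in regular cells. That of 6 microglia markers was 57.73, 172.7, 3.269, 273.8 and 262.8 CPM in the same order of types, with single cells of up to 7720, 11810, 12400, 1070 and 1044 CPM. That of 8 astrocyte markers was 466.2, 459.8, 611.3, 687.7 and 453.1 CPM, with single cells of up to 26920 CPM in PV and 20760 CPM in CA1 pyramidal cells. The part of this glial RNA in the protocadherin levels was not tested. Pooled levels in matching cells are given beside those of all cells for Pcdhgc5, Pcdhgc4 and Pcdhac2.

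Summed over members, the pooled level was 425 CPM in PV, 421 in CCK, 545 in CA1 pyramidal, 194 in burst and 302 in regular cells. PV and CCK cells differed by less than counting error (ratio 1.01, 95% interval 0.988 to 1.03), but the ratio was 0.617 when each cell had equal weight. CA1 pyramidal cells had 2.26-fold the level of subiculum cells, and burst cells 0.642-fold that of regular cells. The clusters took different proportions of the pooled reads. Gamma members took 29.8% of member reads in PV, 24.6% in CCK, 75.6% in CA1 pyramidal, 46.6% in burst and 57.7% in regular cells. Alpha members took 39.55%, 34.45%, 6.84%, 24.51% and 21.07% in the same order of types, and beta members 30.61%, 40.92%, 17.53%, 28.93% and 21.23%. These shares can rest on few cells. PV cells 4 and 12 held 5296 and 4153 of the 12966 member reads in PV cells, with 1824 and 1875 gamma reads. No gamma read was found in 7 of 14 PV cells. CA1 pyramidal cell 17 alone had 3366 gamma reads.

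The pooled level of gamma C-type members differed between cell types. Pcdhgc5, the member that rose in tissue, had 0.328 CPM in PV cells, 17 in CCK, 158 in CA1 pyramidal, 22.2 in burst and 70.5 in regular cells. It had a read in 1 of 14 PV, 8 of 19 CCK, 12 of 25 CA1 pyramidal, 16 of 21 burst and 13 of 14 regular cells. PV cells had a 0.00208-fold level of that in CA1 pyramidal cells (95% interval 0.000996 to 0.00382), and CCK cells a 0.108-fold level. All 3 CCK cells with opposed transmitter genes held Pcdhgc5, with 382 of the 1130 CCK reads. In the 15 matching CCK cells the level was 12.6 CPM, with a read in 5, and in matching PV cells 0.333 CPM. Among CA1 pyramidal cells with a read the level ranged from 1.27 to 846 CPM, and the 18 matching cells had 144 CPM. The 2 CA1 pyramidal cells with opposed transmitter genes also held Pcdhgc5, with 1331 reads.

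Pcdhgc4 was highest in the interneurons when pooled, with 89.8 CPM in PV, 38.5 in CCK, 1.3 in CA1 pyramidal, 5.32 in burst and 12.5 in regular cells. It had a read in 4 of 14 PV, 11 of 19 CCK, 4 of 25 CA1 pyramidal, 7 of 21 burst and 4 of 14 regular cells. The 3 CCK cells with opposed transmitter genes had no read of it. The pooled ratio over CA1 pyramidal cells was 69.1 for PV (95% interval 50.8 to 96.5) and 29.6 for CCK cells. In matching cells it had 91.3 CPM in PV, 43.1 in CCK and 0.079 in CA1 pyramidal cells. Of the 41 reads in CA1 pyramidal cells, 92.7% were in 1 cell, which had no read of the transmitter genes. With the cell holding most of it left out of each type the ratios were 406 and 369. Few reads were then left in CA1 pyramidal cells, so the size of these ratios is uncertain. In PV cells 61.4% of the reads were in 1 cell, and the ratio of PV over CCK was 1.10 without the top cells, against 2.33 with them.

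Pcdhgc4 and Pcdhgc5 were found together and apart. Both had a read in 15 of 93 cells, Pcdhgc5 without Pcdhgc4 in 35, Pcdhgc4 without Pcdhgc5 in 15, and neither in 28. In PV cells the counts were 0 with both, 1 with Pcdhgc5, 4 with Pcdhgc4 and 9 with neither. In CCK cells they were 5, 3, 6 and 5, and in CA1 pyramidal cells 2, 10, 2 and 11. In burst cells they were 5, 11, 2 and 3, and in regular cells 3, 10, 1 and 0. Pyramidal cells of both regions with either gene mostly held Pcdhgc5 without Pcdhgc4. A cell without a read of a gene may still have expressed it.

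Pcdhac2 had reads in all 5 types. Its pooled level was 120 CPM in PV, 64.4 in CCK, 11.1 in CA1 pyramidal, 17.3 in burst and 20.5 in regular cells, with a read in 7 of 14 PV, 8 of 19 CCK, 3 of 25 CA1 pyramidal, 15 of 21 burst and 9 of 14 regular cells. In matching cells it had 64.2 CPM in CCK and 13.9 in CA1 pyramidal cells. In CA1 pyramidal cells 99.1% of its reads lay in 1 cell. The ratio over CA1 pyramidal cells was 10.8 for PV and 5.78 for CCK, and 1000 and 569 without the cell holding most of it in each type. The last 2 values rest on the few reads left in CA1 pyramidal cells, so their size is uncertain. The ratio of PV over CCK was 1.86 pooled and 0.826 with equal weight per cell, so their order was not settled.

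Pcdhgc3 and Pcdhac1 were rare in these neurons. Pcdhgc3 had no read in PV cells, 1 read in CA1 pyramidal cells (0.0317 CPM), 6.21 CPM in 5 CCK, 2.52 CPM in 8 burst and 6.72 CPM in 3 regular cells, with 93.7% of the last in 1 cell. The ratio of CA1 pyramidal over subiculum cells was 0.00732, from 1 against 166 reads. Pcdhac1 had 26.2 CPM in 2 PV cells, 98.1% of it in 1, none in CCK, 4.31 CPM in 1 CA1 pyramidal, 4.22 CPM in 3 burst and 0.726 CPM in 1 regular cell. Over all members, C-type genes gave 55.6% of member reads in PV, 29.9% in CCK, 32.0% in CA1 pyramidal, 26.6% in burst and 36.7% in regular cells.

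**Figure D4:**
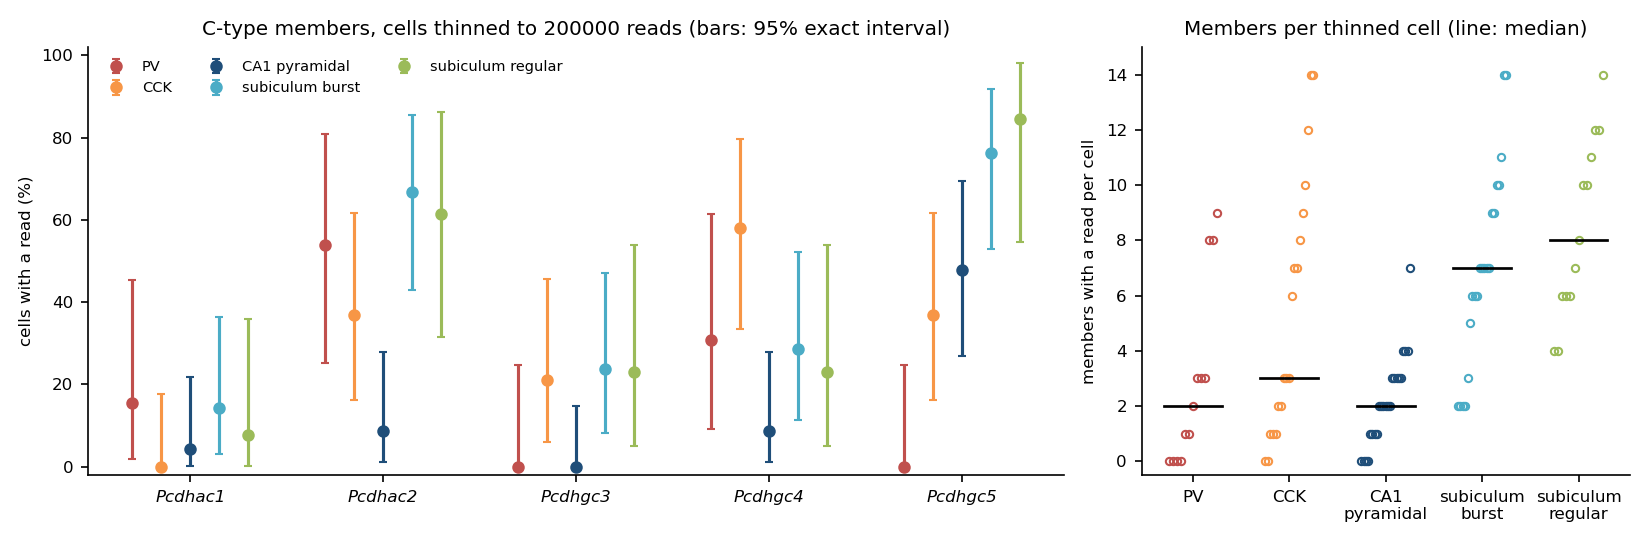
Left, share of cells with a read (vertical axis, percent, with exact 95% binomial intervals that cover counting error only, each type being 1 sample) of each C-type member (horizontal axis) in 5 cell types, each cell thinned to 200000 reads. Right, number of members with a read in each thinned cell (vertical axis) by type (horizontal axis), with a line at the median. Pcdhgc5 runs from 0 of 13 PV cells to 11 of 13 regular cells, Pcdhgc4 is most frequent in CCK cells, and the medians on the right lie between 2 and 8 members.

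A single neuron held few members. To compare types, cells were thinned to 200000 gene reads each, which 89 of 93 cells allowed. The median number of members with a read was then 2 in 13 PV cells (range 0 to 9), 3 in 19 CCK (0 to 14), 2 in 23 CA1 pyramidal (0 to 7), 7 in 21 burst (2 to 14) and 8 in 13 regular cells (4 to 14). Without thinning the medians were 1.5, 6, 3, 8 and 9.5 in the same order, and the largest number in any cell was 24. Across the 93 cells, without thinning, the correlation of genes detected with members detected was 0.79, and within types it was 0.64 to 0.83. With log10 gene reads in place of genes detected, the correlation over all cells was 0.37. These values are a description only, as the cells differ in depth and in genes detected. Thinning sets the number of reads equal only. Whether the difference between CA1 and subiculum lies in the cells or in the kit cannot be told apart.

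Of the 93 cells, 12 had no member read: 5 PV, 1 CCK and 6 CA1 pyramidal cells, with 276 to 3401 genes detected (median 1132). Of the 79 cells with at least 2000 genes detected, 4 had none. Members of all 3 clusters were found in 49 cells, of 2 clusters in 20, of 1 in 12 and of 0 in 12. A C-type member had a read in 71 cells.

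Within a cluster 1 member usually took most of the reads, counted without a correction for length. Among the 48 cells with at least 20 alpha reads, the leading alpha member held a median of 71.3% of them (range 26.3 to 100). For beta this was 75.9% in 55 cells (40.0 to 100) and for gamma 66.0% in 67 cells (24.9 to 100). The gene in the lead changed from cell to cell. There were 12 different leading members for alpha, 16 for beta and 17 for gamma. Pcdhac2 led in 20 of the 48 alpha cases and Pcdhgc5 in 21 of the 67 gamma cases, whereas in the beta cluster, which has no C-type member, Pcdhb9 led most often with 9 of 55. In 12 alpha, 18 beta and 12 gamma cases the cell had reads of a single member of that cluster. CA1 pyramidal cells were the most extreme, with medians of 99.3% in 6 cells for alpha, 100% in 10 cells for beta and 99.9% in 15 cells for gamma. Regular cells had 64.2% in 12, 60.0% in 11 and 51.3% in 12 cells. These types differed in kit and in genes detected, as given above.

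Cells with many member reads show what such a set looked like. PV cell 4 had 5296 member reads on 10 members, led by Pcdhac2 with 1077 reads, Pcdhgc4 with 1000, Pcdhga2 with 822, Pcdhac1 with 784 and Pcdhb7 with 721. CCK cell 2 had 4505 reads on 6 members, namely Pcdha5 with 1091 and Pcdha4 with 54, Pcdhb17 with 1322 and Pcdhb10 with 1298, and Pcdhgc4 with 381 and Pcdhgc5 with 359. Counted over all member reads, no single member took most of them in these interneurons, nor in the subiculum cells described below. Within a cluster this could differ, as Pcdha5 took most of the alpha reads of CCK cell 2. CA1 pyramidal cell 17 had 3367 reads on 3 members, of which 3333 were on Pcdhga11 alone. Subiculum burst cell 9 had 839 reads on 15 members, where Pcdhac2 held 52.8% of alpha, Pcdhb7 67.1% of beta and Pcdhgb1 32.9% and Pcdhgc5 26.3% of gamma reads. Subiculum regular cell 4 had 706 reads on 8 members, where Pcdha12 held 88.2% of alpha reads and Pcdhgc5 42.6%, Pcdhgb4 26.6% and Pcdhga7 20.3% of gamma reads. These were the cells with the most member reads of their type.

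**Figure D5:**
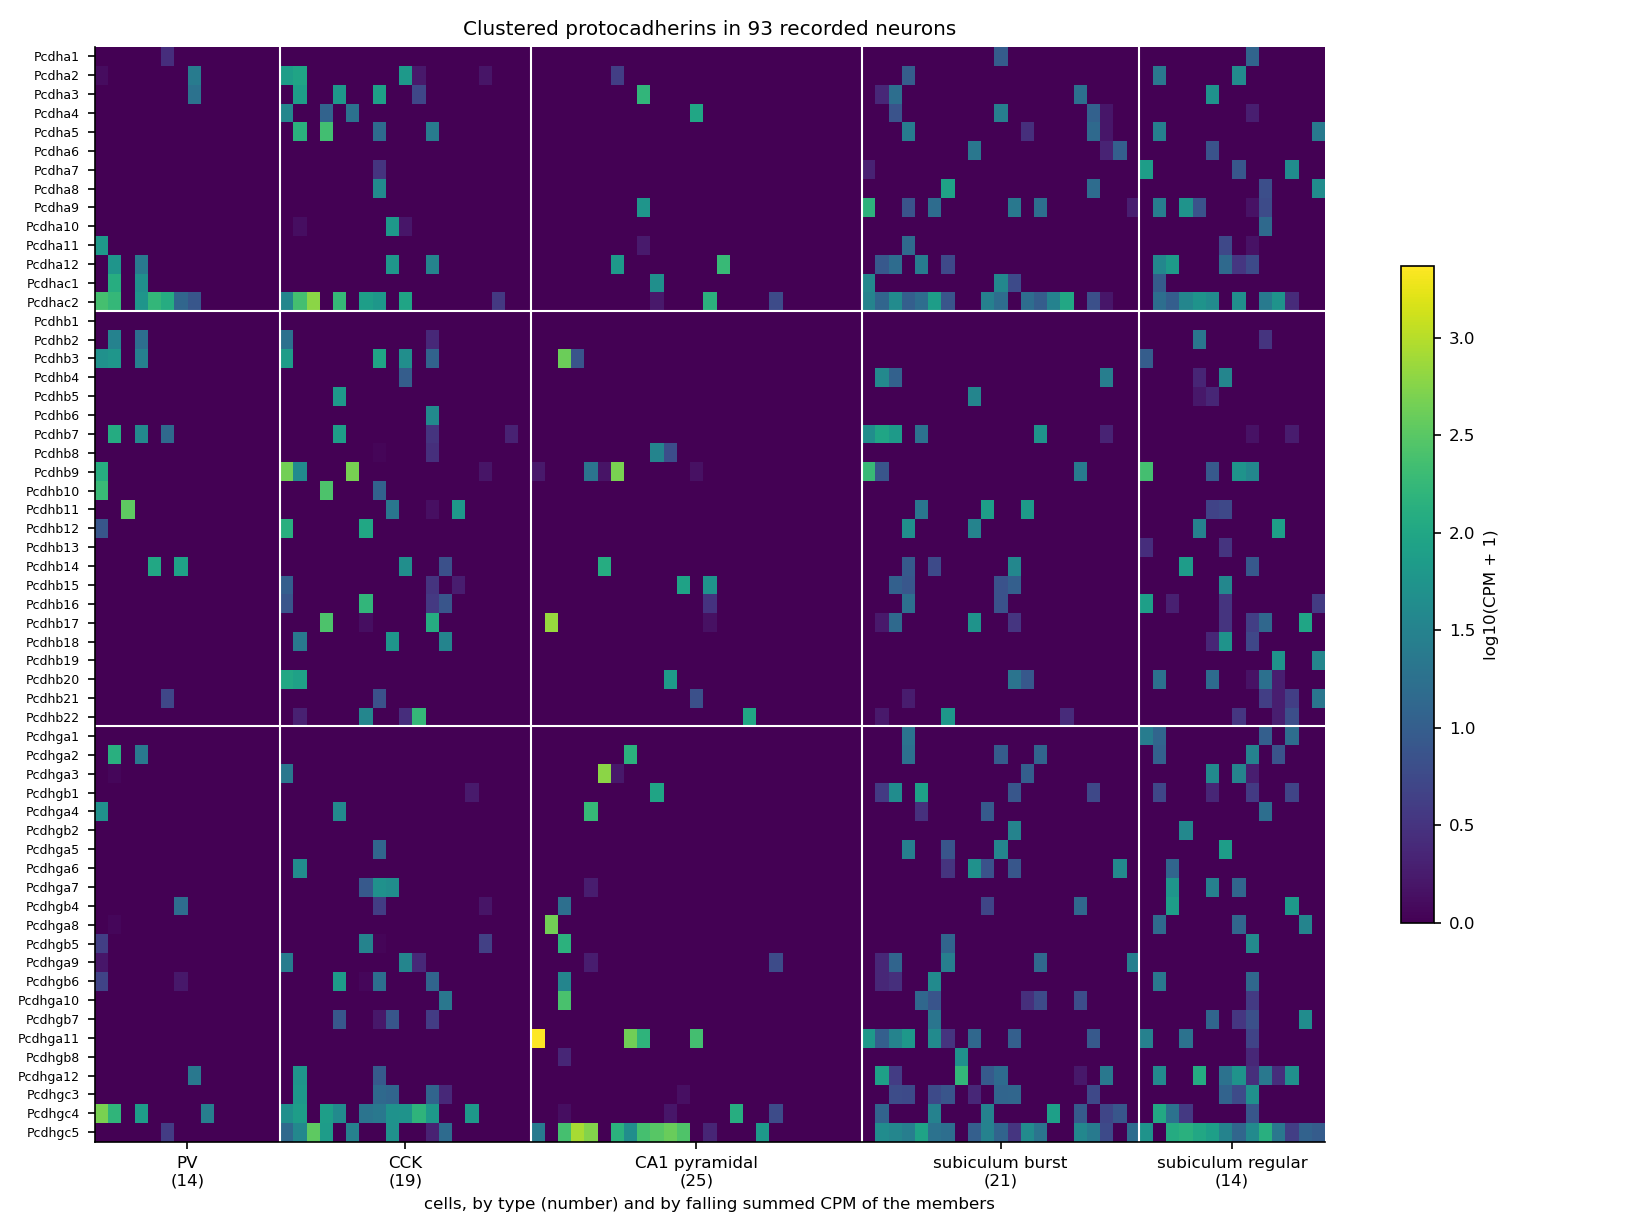
Level of each located member (rows, in order along the alpha, beta and gamma clusters) in each of 93 neurons (columns, by type and then by falling summed CPM), as log10(CPM + 1) of unthinned reads on the colour scale. Pcdhgc5, Pcdhac2 and Pcdhgc4 have reads in 50, 42 and 30 of the 93 cells, and each of the other members in at most 18.

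Pcdhgc5, Pcdhac2 and Pcdhgc4 were used by more cells than any other member. The C-type members Pcdhgc3 and Pcdhac1 were not set apart in this way. After thinning, a C-type member had a read in 28.8% of the 89 cells on average (range over the 5 genes 7.9 to 50.6%). Pcdhgc5 was found in 45, Pcdhac2 in 38 and Pcdhgc4 in 26 of them. The other 54 members averaged 6.6% of cells (0 to 16.9%). In 33 of these 54 a single cell held at least 50% of all reads, and in 1 of the 5 C-type members.

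The sets of members outside the C-type group were almost all different. Among 73 thinned cells with such a member there were 70 different sets. Of 2628 pairs of cells, 1799 (68.5%) shared no such member and 3 had identical sets. The mean overlap of 2 cells, as shared members divided by members in either, was 0.057 within a type (SD 0.1) and 0.044 between types (SD 0.083). For C-type members it was 0.464 within a type (SD 0.326) and 0.347 between types (SD 0.291), with 18 different sets in 68 cells. Pairs share cells, so these values are a description. The lists differ in length, with 5 C-type members and 54 others. A shorter list allows fewer different sets and raises the overlap of 2 cells, so the 2 groups cannot be compared directly. A low number of members per cell and missed reads also lower the overlap. The part of list length, member number and missed reads was not tested.

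Members close to each other were found together at shares from near the background to above it. Given a non-C-type member with at least 10 reads in a cell, gamma members 1 to 3 places away on either side had a read in 11.39 to 24.39% of cases, beside 8.9% of all combinations of a cell and a gamma member. The highest value was for the gamma member 2 places downstream, with 20 of 82 cases. Beta members 1 to 3 places away were found in 8.74 to 17.89% of cases, beside 8.0%, and alpha members in 13.73 to 20% of cases, beside 8.3%. The background counts cells with few or no members too, so it is lower than what such cells would give, and these shares are not read as linkage.

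Outside the C-type group, the members that told types apart rested on few cells. Pcdhga11 had 149 CPM in CA1 pyramidal cells, from 4694 reads in 4 cells with 71.0% in 1 of them, 12.8 CPM in 9 burst cells and 4.12 CPM in 3 regular cells, and no read in PV or CCK cells. Counting 3 reads over the group in place of 0, it was at least 1510-fold lower in PV and at least 3290-fold lower in CCK than in CA1 pyramidal cells. Pcdhga3 had 1 read in PV and 1177 in CA1 pyramidal cells, 99.9% of them in 1 cell. Pcdhgb1 had 1 read in CCK and 271 in 1 CA1 pyramidal cell.

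Between the interneurons, Pcdhga2 (829 reads in 2 PV cells) and Pcdhac1 (799 reads in 2 PV cells) were at least 601-fold and 579-fold higher in PV than in CCK cells, which had no read of either. Pcdha5 (1695 reads in 4 CCK cells) and Pcdhb17 (1651 reads in 3 CCK cells) were at least 260-fold and 253-fold lower in PV cells, which had none. Against CA1 pyramidal cells, CCK cells were higher in Pcdhga7 (742 reads against 1, ratio 353, 95% interval 63.2 to 14000) and in Pcdha5 (at least 269-fold). PV cells were higher than CA1 pyramidal cells in Pcdhb7 (777 reads against 0, at least 268-fold) and Pcdhb10 (643 reads in 1 cell against 0, at least 222-fold).

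Among pyramidal cells, Pcdhga12 had 701 reads in 15 subiculum cells and 0 in CA1, at least 192-fold lower in CA1. Of the named contrasts outside the C-type group, this one rested on the most cells. Pcdhb3 was higher in CA1 (1219 reads against 10, ratio 148, 95% interval 80.3 to 310), where 1 cell held 99.6% of the reads, as was Pcdhb8 (reads in 2 CA1 cells, 91.2% of them in 1, against none, at least 41.3-fold). Within the subiculum, Pcdhb7 had 450 reads in 6 burst cells against 2 in regular cells (ratio 170, 95% interval 46.9 to 1410), and Pcdha4 had 70 against 2 (ratio 26.5). Pcdha7 had 1 read in burst and 141 in regular cells (ratio 0.00537), and Pcdhga7 had 0 against 139. The remaining leaders of a type were Pcdhb14 in PV cells (34.2 CPM in 2 cells) and Pcdhb9, with 28.5 CPM in 4 CCK cells and 22 CPM in 4 regular cells.

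Last, the neurons were set beside tissue of P21 and P28, whose reads were pooled without TMM scaling. The mean of the 5 types was 377 CPM for all members, against 652 CPM in tissue, a ratio of 0.579. Pcdhgc3 was much lower in neurons, with 3.10 CPM in neurons and 55.1 CPM in tissue (ratio 0.0562). Pcdhgb7 had 0.696 CPM in neurons and 11.6 CPM in tissue (ratio 0.0599), Pcdha6 0.317 and 4.16 CPM (ratio 0.0763), and Pcdhga8 0.904 and 10.4 CPM (ratio 0.0872). Among members with a read in cells, Pcdhb13 had the lowest ratio, 0.0247, from 3 reads in cells and 96 in tissue. Pcdhgc5 had a ratio of 0.46, Pcdhac2 of 0.498 and Pcdhgc4 of 1.11, and Pcdhga11, with 66.1% of its reads in 1 CA1 pyramidal cell, of 3.12. Pcdha8 had the highest ratio, 6.66, with 1.93 CPM in neurons and 0.291 CPM in tissue, from 456 reads in cells, 82.9% of them in 1 CCK cell, and 19 reads in tissue. The neurons are 5 chosen types, tissue holds glia and other neurons, and the whole-tissue RNA was extracted with a kit not used for cells. Version 4 of the cDNA kit was used for tissue and subiculum cells, and version 3 for PV, CCK and CA1 pyramidal cells. The source of the differences between neurons and tissue was not tested.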

How the data were processed

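RNA of 15 hippocampal tissue libraries and 93 single neurons was sequenced by the submitters after SMARTer cDNA synthesis and Nextera tagmentation, per the labels' protocols. The deposited table holds raw read counts, 1 row per gene symbol. Tools named in the submitters' processing notes are HTSeq, STAR, Trim Galore, cutadapt and FastQC, with builds hg19 and mm10, but neither versions nor roles. Whether counting used strand is not given in the sources used here, and 92 ERCC spike-ins were left out of totals.

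Tissue counts were fitted over all 15 libraries with edgeR 4.0.16 (R 4.3.3; TMM, filterByExpr, robust quasi-likelihood test of age, no covariates, Benjamini-Hochberg over 14737 genes). On simulated data of this design, 95% of 200 genes with a 2-fold change were recovered at P28 against P0, with 5% false calls, in a run on 14526 genes. The simulation gave all genes 1 common spread and changed only genes with a mean above 2 CPM, at P28 alone. Its rates need not hold for the real data or for weaker members. Cells were pooled by labelled type. The members and gene lists were chosen with earlier results of these data known. Values in every library were given for the C-type members, for up to 3 called members of a cluster at either end of the P28 over P0 change and for the largest called step between ages. In cells, the 3 highest members of each type, the 3 most often detected, and the 2 at either end of each ratio of types with at least 50 reads were named, as were the 3 regulators at either end. Members such as Pcdhga8, Pcdhgb7, Pcdha6, Pcdhb13 and Pcdha8, set beside tissue, were picked after their values were seen. Alternatives were DESeq2 1.42.0, no filter, other scaling, a replicate block, single libraries left out, other thinning and cell weights. Positions come from GENCODE M21. Exact 95% intervals and the 3-read limit cover counting error only. No member sequences are shown. The value of 1 gene of the regulator list is not reported here.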

Additional observations from a re-analysis of the deposited data

How the results depend on the processing

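The number of members called at P28 against P0 was 34 with the replicate block and 33 with DESeq2, beside 35. When single libraries were left out it was 32 to 35, and it was 4 to 11 for P7 over P0, 20 to 27 for P14 over P7, 3 to 4 for P21 over P14, 0 to 2 for P28 over P21, 35 to 39 over all ages, and 34 to 36 for regulators and partners. With only the 6 libraries of the ages compared, 13 members were called for P7 over P0, beside 8, and 2 for P21 over P14, beside 4. With the replicate block the later counts were 8, 25, 4, 1 and 38, and 34 for regulators and partners. Same-numbered libraries correlated at -0.287 to 0.181 (median -0.018) in their deviations from the age means. For libraries with other numbers this was -0.292 to 0.29 (median 0.023). Replicate numbers thus gave no sign of pairing, but whether libraries shared a litter or batch was not tested. Of 460 alternative values of the 23 named tissue changes, 456 kept their side of the threshold, 4 lost the call and 0 changed sign. Plain CPM moved the alpha sum at P7 to 261.0, the gamma sum at P0 to 483.4 and at P21 to 349.7. The pooled level of all members in PV over CCK cells was 0.617 with equal weight per cell, 0.828 without the cell with the most member reads in each type and 1.09 with cells of at least 2000 genes, a choice made after seeing the data. Under these 3 settings, CCK over CA1 pyramidal was 0.862, 0.832 and 0.747, and PV over CA1 pyramidal 0.532, 0.689 and 0.817. CA1 pyramidal over subiculum was 1.98 with equal weight and 2.01 without the top cells, and burst over regular 0.602 without them. In cells whose transmitter genes matched their label, also chosen after seeing the data, the ratios were 0.7 for CCK and 0.699 for PV over CA1 pyramidal and 2.57 for CA1 pyramidal over subiculum. The order reversed for Pcdhac2 in PV over CCK (0.826) and Pcdhac1 in CA1 pyramidal over subiculum (0.766) with equal weight, and for Pcdhgc3 (3.66) and Pcdhgc4 (1.01) in burst over regular without the cell holding most of each. The causes were not tested. Genes, members and cells with few reads limit these values: a member without a read in a cell type may have been present under 3 reads.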
